A study of Mus musculus with 2 samples.

Results

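The respiratory chain and ATP synthase genes of the mouse were read out here in single cells of the dentate gyrus. Members were taken by gene symbol: the nuclear genes whose names begin with Ndufa, Ndufb, Ndufc, Ndufs, Ndufv, Uqcr, Cox4 to Cox8 or Atp5, and the mitochondrially encoded genes for subunits of complex I (mt-Nd), complex III (mt-Cytb), complex IV (mt-Co) and ATP synthase (mt-Atp). This gave 102 gene IDs of 31053 in the count tables, 89 of them nuclear and 13 mitochondrially encoded. By complex, the nuclear IDs were 36 for complex I subunits, 8 for complex I assembly factors, 8 for complex III, 20 for complex IV and 16 for ATP synthase, with Atp5s apart as 1 related gene. The symbols bring in assembly factors that are not subunits, and they miss Cyc1, a complex III subunit with another name.

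Oxidative phosphorylation passes electrons from NADH through complexes I, III and IV to oxygen while pumping protons out of the mitochondrial matrix, and ATP synthase uses the returning protons to make ATP. Each of these complexes combines nuclear subunits, imported from the cytosol, with a few subunits encoded by the mitochondrial genome, whose strands are transcribed as long precursors and cut into separate RNAs. In the developing brain, neural stem cells are known to rely strongly on glycolysis, and oxidative phosphorylation gains weight as neurons mature.

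The samples were 2 droplet libraries of dentate gyrus at postnatal day 2 (P2). Cells of the KO library were taken from mice carrying hGFAP-Cre and floxed alleles of Kdm6b (hGFAP-Cre;Kdm6bF/F), a histone H3K27 demethylase, and those of the WT library from littermate controls, whose alleles the labels do not state. Each library held cells of 2 pooled animals, dissociated with papain and recovered with a target of 2500 cells, so there was 1 library per genotype and no test between genotypes could be made. The hGFAP promoter drives Cre in radial glia and thereby reaches neurons and glia born from them, while endothelial, mural and microglial cells lie outside that lineage. Which cells of the other classes carried recombined alleles was not measured.

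After filtering, the KO library held 1933 cells with 25533397 UMIs (unique molecular identifiers, each standing for 1 captured RNA molecule) and the WT library 2958 cells with 31625208 UMIs. Kdm6b itself had 57.6 CPM (counts scaled to a common total, here of all UMIs of the same cells) in KO and 57.9 CPM in WT over all cells. It was lower in KO in cluster 8, a mitotic cluster led by Pclaf, Top2a and Mki67 (6 against 56 UMIs, log2 ratio -1.82), and in intermediate progenitor-like cells (20 against 89 UMIs, -0.96). It was also lower in pyramidal neuron-like cells (390 UMIs in KO, 581 in WT, -0.31). In radial glia-like cells (61 UMIs in KO, 37 in WT, 0.31) and GABAergic neuron-like cells (98 in KO, 70 in WT, 0.05) its interval held equality. In endothelial-like cells, outside the Cre lineage, Kdm6b was higher in KO (470 UMIs in KO, 422 in WT, 0.29, ratio interval 1.07 to 1.40). The UMIs are 3′ tags, and the labels do not name the floxed exons, so a tag outside them checks nothing. Clustering without any member gene gave 14 named classes, and in each class the summed markers were higher than in the remaining cells of the same library. In neuroblast-like cells, for example, they had 10474 CPM in KO, against 1936 in the rest of that library, and 12195 CPM in WT, against 1989. The same marker lists named the clusters, so this contrast follows from the naming rule and is no separate check of the names. Cells with Y-linked UMIs and no Xist numbered 0 of the KO cells and 989 of the WT cells (33.4%), so sex differed between the libraries, and its part in any difference was not tested.

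Several mitochondrial genes, among them mt-Atp8 with the highest KO-to-WT ratio, share bases with a neighbour, which limits how well their UMIs can be told apart. On the mouse mitochondrial chromosome (GRCm38, GENCODE M21), mt-Atp8 spans chrM:7766-7969 on the plus strand and shares its last 43 bases with mt-Atp6, and mt-Nd4l spans chrM:9877-10173 on the plus strand and shares its last 7 bases with mt-Nd4. Each pair is known to be carried on 1 bicistronic RNA, so the split of UMIs between its genes is uncertain. Mt-Nd3, which had the second highest ratio, spans chrM:9459-9806 on the plus strand and overlaps no other member. Both genes are shown whole, with the shared bases in capitals:
mt-Atp8: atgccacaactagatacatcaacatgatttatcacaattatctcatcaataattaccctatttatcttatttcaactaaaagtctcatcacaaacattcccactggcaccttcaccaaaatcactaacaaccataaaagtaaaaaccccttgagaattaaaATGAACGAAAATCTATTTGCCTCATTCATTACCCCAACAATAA
mt-Nd4l: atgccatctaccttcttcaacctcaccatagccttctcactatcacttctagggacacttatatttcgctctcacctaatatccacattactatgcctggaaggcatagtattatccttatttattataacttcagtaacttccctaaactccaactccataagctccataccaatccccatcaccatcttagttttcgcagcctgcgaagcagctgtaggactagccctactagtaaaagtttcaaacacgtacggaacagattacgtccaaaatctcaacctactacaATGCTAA

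Among the nuclear members, the 300-base promoters of the Cox6b paralogues are shown because the 2 genes had contrasting cell-type profiles. They run from 250 bases before to 50 bases after the start in RefSeq (GRCm38), on the minus strand, at chr7:4753045-4753344 for Cox6b2 and chr7:30626065-30626364 for Cox6b1. Capitals mark CCAAT (read as ATTGG on the other strand) and the ETS core CCGGAAG (read as CTTCCGG):
Cox6b2: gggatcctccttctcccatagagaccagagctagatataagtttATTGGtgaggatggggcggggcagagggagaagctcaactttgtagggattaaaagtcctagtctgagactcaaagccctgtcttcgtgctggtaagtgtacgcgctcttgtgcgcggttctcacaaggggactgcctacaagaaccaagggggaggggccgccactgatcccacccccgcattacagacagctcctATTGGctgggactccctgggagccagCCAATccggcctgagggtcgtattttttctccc
Cox6b1: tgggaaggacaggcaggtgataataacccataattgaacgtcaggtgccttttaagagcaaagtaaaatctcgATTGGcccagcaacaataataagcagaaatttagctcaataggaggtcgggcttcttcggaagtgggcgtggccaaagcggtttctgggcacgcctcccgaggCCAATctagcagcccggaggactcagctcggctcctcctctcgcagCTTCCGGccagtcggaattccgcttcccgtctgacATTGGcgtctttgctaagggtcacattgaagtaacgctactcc

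Cox6b2 held 3 CCAAT matches and no ETS match, and Cox6b1 held 3 CCAAT matches and 1 ETS match. A window was found for 71 of the 88 nuclear symbols. On either strand, the palindromic NRF1 motif, GCGCA followed directly by TGCGC, lay in 7 of them (9.86%), against 1.07% of all 27025 gene windows. The YY1 motif AAGATGGCG lay in 8 (11.3%), against 1.64%, and the ETS core in 16 (22.5%), against 9.93%. The CCAAT box was about as frequent in the members as elsewhere, at 43.7% against 41.1%, and TATAAA was present in 9.86%, against 15.7%. A match is a run of letters in these windows and does not show that a factor binds there.

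The summed nuclear and mitochondrial members moved apart between the libraries. Nuclear members took 3.15% of all UMIs in KO (803830 UMIs) and 3.19% in WT (1008621 UMIs), a log2 ratio of -0.02 with a ratio interval of 0.984 to 0.990. Mitochondrially encoded members took 4.13% in KO (1054363 UMIs) and 3.82% in WT (1209633 UMIs), a log2 ratio of 0.11 with an interval of 1.08 to 1.08. These 95% intervals and all others given cover counting error only, and not the spread between animals or libraries. The median cell showed the same order, with 3.98% mitochondrial member UMIs in KO and 3.57% in WT. Expressed as a quotient, there were 1.31 mitochondrial UMIs per nuclear member UMI in KO and 1.20 in WT.

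**Figure D1:**
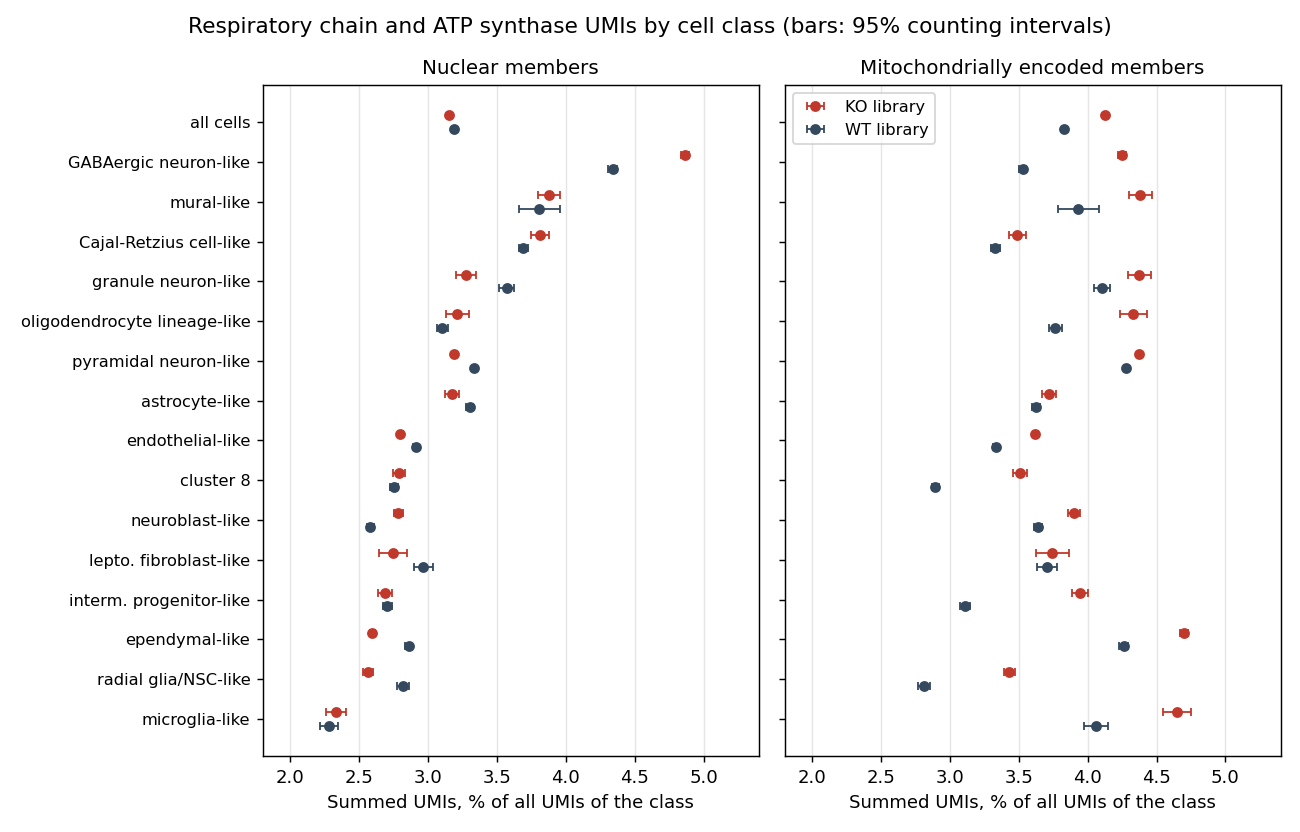
Summed UMIs of the nuclear (left) and mitochondrially encoded (right) members as a percentage of all UMIs of each cell class; points are the KO (red, upper) and WT (blue, lower) libraries, bars are 95% exact Poisson intervals for counting error. The mitochondrial sum was higher in KO in every class shown, while the nuclear sum was higher in KO in some classes and lower in others, and GABAergic neuron-like cells had the highest nuclear sum in both libraries (4.86% in KO, 4.34% in WT).

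By cell class, the nuclear sum gave a similar order of cells in both libraries, with GABAergic neuron-like cells highest at 4.86% in KO and 4.34% in WT and microglia-like cells lowest at 2.33% in KO and 2.28% in WT. Mural-like cells (3.88% in KO, 3.81% in WT) and Cajal-Retzius-like cells (3.81% in KO, 3.69% in WT) followed GABAergic cells, and in KO the intervals of these 2 classes overlapped. Stem and progenitor classes lay towards the low end, but were not alone there. In WT, neuroblast-like cells had a lower share than either radial glia-like or intermediate progenitor-like cells. Ependymal-like cells lay close to radial glia-like cells in both libraries. Radial glia-like cells had 2.56% in KO and 2.82% in WT, and intermediate progenitor-like cells, the transit cells that divide into neuroblasts, had 2.68% in KO and 2.70% in WT, with intervals that overlapped. The mitochondrial sum followed another order, in which microglia-like cells (4.65% in KO, 4.06% in WT) and ependymal-like cells (4.70% in KO, 4.26% in WT) stood near the top. Microglia-like cells therefore had 2.00 mitochondrial UMIs per nuclear member UMI in KO and 1.78 in WT, while GABAergic neuron-like cells had 0.873 in KO and 0.813 in WT.

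Between the libraries, 9 classes with at least 50 cells in each were compared. The mitochondrial sum was higher in KO in all 9, by the widest margins in intermediate progenitor-like cells (3.94% in KO, 3.11% in WT, log2 ratio 0.34), radial glia-like cells (3.43% in KO, 2.81% in WT, 0.29), cluster 8 (3.51% in KO, 2.90% in WT, 0.28) and GABAergic neuron-like cells (4.25% in KO, 3.53% in WT, 0.27). Margins were narrow in pyramidal neuron-like cells (4.37% in KO, 4.28% in WT, 0.03) and astrocyte-like cells (3.72% in KO, 3.63% in WT, 0.04). In both of these classes the direction turned when cells above 5% mitochondrial UMIs were left out (-0.04 in pyramidal and -0.05 in astrocyte-like cells). The same limit brought GABAergic neuron-like cells to 0.07 and ependymal-like cells, at 0.14 otherwise, to 0.03. In neuroblast-like cells, at 0.10, the value was 0.41 with no mitochondrial limit. Within endothelial-like cells, cluster 20 alone went the other way (3.39% in KO, 3.86% in WT, -0.19).

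Nuclear sums differed by class in both directions. GABAergic neuron-like cells were higher in KO (log2 ratio 0.16), as were neuroblast-like cells (2.78% in KO, 2.58% in WT, 0.11). Both were nearer to 0 with at most 5% mitochondrial UMIs (0.08 in GABAergic neuron-like and 0.04 in neuroblast-like cells), and the GABAergic value was 0.07 as a mean over cells. Ependymal-like cells were lower in KO (2.59% in KO, 2.86% in WT, -0.14), as were radial glia-like cells (-0.14). The radial glia-like class was made of different clusters in the libraries: cluster 10 held 118 of the 139 KO cells, and cluster 16, led by Hopx, Tfap2c and Thrsp, held 87 of the 154 WT cells. Within cluster 10 the nuclear log2 ratio was 0.02 and within cluster 16 it was -0.04, so the class difference was not present inside either cluster. The mitochondrial ratio stayed positive inside both (0.30 in cluster 10 and 0.44 in cluster 16). The pyramidal neuron-like class was also made up differently, with 160 KO and 21 WT cells in cluster 12.

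Other signs of library state also differed between the libraries. Nuclear-retained RNAs (Malat1, Neat1 and Meg3) took 1.90% of UMIs in KO and 1.68% in WT over all cells, and the gap was widest in endothelial-like cells (1.65% in KO, 0.964% in WT) and ependymal-like cells (3.05% in KO, 1.81% in WT). In pyramidal neuron-like cells they went the other way (1.13% in KO, 1.31% in WT). Genes of the response to dissociation took 0.497% in KO and 0.469% in WT over all cells, and 1.32% in KO against 1.12% in WT in radial glia-like cells. The part of these in the members' differences was not tested. The 13 mitochondrial members were also the genes of the mitochondrial filter, which alone removed 71 KO and 103 WT barcodes (3.48% and 3.29%).

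Over all cells, 99 members had at least 20 UMIs, 86 nuclear and 13 mitochondrial. A gene was called at a CPM ratio of at least 1.5-fold, which 8.4% of all 16100 such genes reached upwards and 5.35% downwards. Of the 86 nuclear members 1 was called higher in KO and 0 lower, and of the 13 mitochondrial members 2 were called higher and 0 lower. Those called were mt-Atp8, mt-Nd3 and Cox6a2. The median log2 ratio was -0.01 for nuclear members, 0.19 for mitochondrial members and 0.00 for all genes. Ratio intervals lay wholly above 1 for 25 nuclear and 10 mitochondrial members, and for 24.1% of all genes. They lay wholly below 1 for 36 nuclear and 1 mitochondrial member, and for 24.0% of all genes. Intervals narrow as UMIs rise, so these counts depend on depth as well as on the ratio. The shares over all genes were not matched for depth.

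The mitochondrially encoded members did not move as a block. Mt-Atp8, which encodes a small ATP synthase subunit, had 3606 UMIs in KO and 2130 in WT, or 141 and 67.4 CPM, a log2 ratio of 1.07. Mt-Nd3, a complex I subunit, had 396 CPM in KO and 261 CPM in WT (0.60). The next were mt-Nd5 (615 CPM in KO, 454 in WT, 0.44) and mt-Nd4l (413 CPM in KO, 307 in WT, 0.43), both complex I subunits. At the other end were mt-Nd1 (4964 CPM in KO, 4920 in WT, 0.01), mt-Cytb of complex III (4142 CPM in KO, 4113 in WT, 0.01) and mt-Co3 of complex IV. Mt-Co3 had 6891 CPM in KO and 7270 in WT (-0.08), the only mitochondrial member below 0.

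The other mitochondrial members lay between these ends. The core complex I subunit mt-Nd2 had 1264 CPM in KO and 1026 in WT (0.30), and mt-Nd4 had 2650 CPM in KO and 2441 in WT (0.12). The catalytic complex IV subunits were close to each other, with 5685 CPM in KO and 4845 in WT for mt-Co1 (0.23) and 4198 CPM in KO and 3677 in WT for mt-Co2 (0.19). Mt-Atp6, whose reading frame starts inside mt-Atp8, had 9922 CPM in KO and 8857 in WT (0.16), so the UMIs of the 2 ATP synthase genes did not keep 1 ratio between the libraries. Mt-Nd6, the one subunit encoded on the minus strand and overlapping mt-Nd5 from the other side, was scarce, with 315 UMIs in KO and 348 in WT (0.17).

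**Figure D2:**
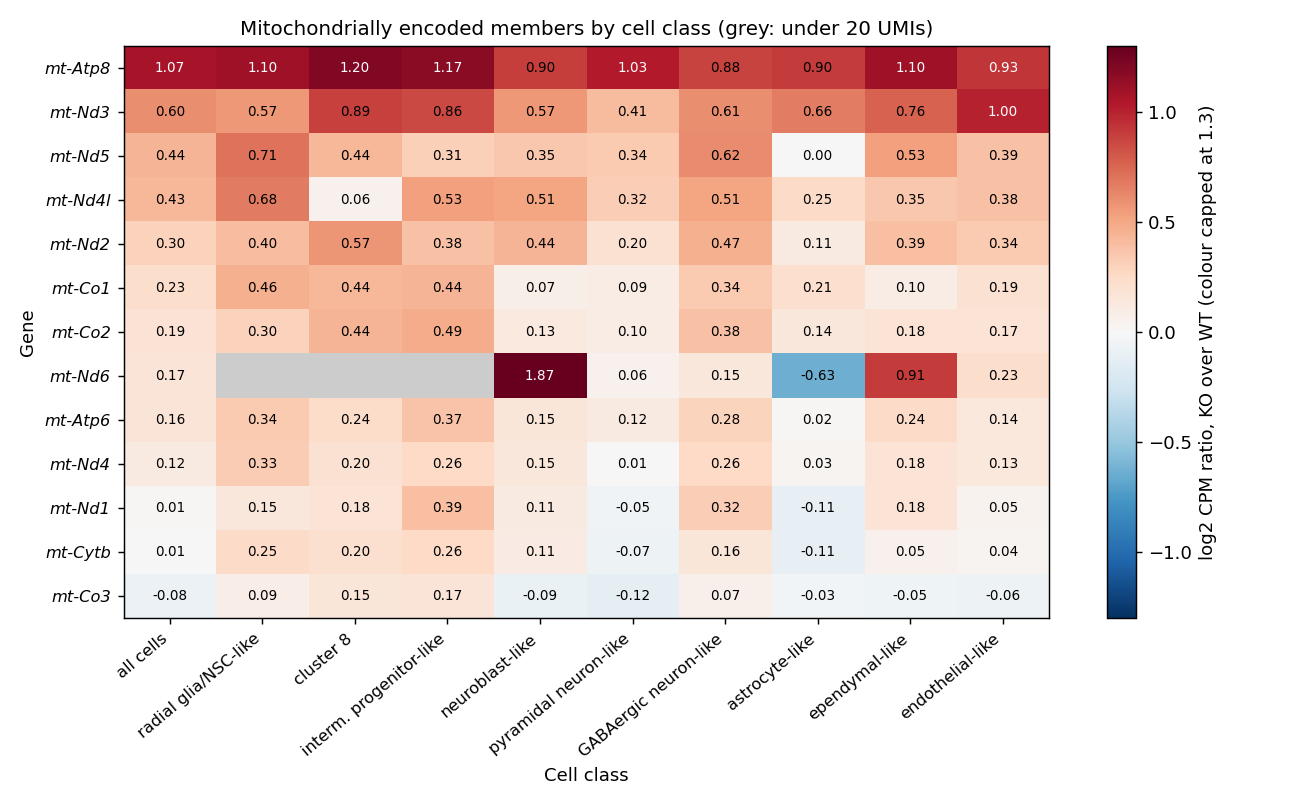
Log2 CPM ratio, KO over WT, of each mitochondrially encoded member (rows) over all cells and in the 9 compared classes (columns); grey cells had under 20 UMIs. mt-Atp8 and mt-Nd3 were above 0 in all 9 classes, while mt-Co3 was above 0 in 4 and below 0 in 5.

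Mt-Atp8 passed 1.5-fold in all 9 classes. It ranged from 0.88 in GABAergic neuron-like cells to 1.20 in cluster 8, and mt-Nd3 from 0.41 in pyramidal neuron-like cells to 1.002 in endothelial-like cells, which lie outside the Cre lineage (1280 UMIs in KO, 703 in WT). In endothelial-like cells mt-Atp8 had 529 UMIs in KO and 306 in WT (0.93), within the range of the other classes. Of the 12 mitochondrial members measured in all 9 classes, 9 were at or above 0 in every class, against 2.80% of the 5958 genes measured in all 9. The exceptions were mt-Nd1 and mt-Cytb, each below 0 in 2 classes, and mt-Co3, below 0 in 5. For mt-Nd5 the lowest value was 0.00, in astrocyte-like cells (409.9 CPM in KO, 410.6 in WT). Mt-Nd6 ranged from -0.63 in astrocyte-like cells (6 UMIs in KO, 35 in WT) to 1.87 in neuroblast-like cells (18 in KO, 9 in WT), over 6 classes with few UMIs.

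Cutting the cells more finely gave the same picture. Over the 26 clusters with at least 15 cells in each library, mt-Atp8 (0.27 to 1.99), mt-Nd3 (0.18 to 1.04) and mt-Nd4l (0.06 to 1.15) were above 0 in 26. Mt-Nd2, mt-Co2 and mt-Nd5 were above 0 in 25, mt-Co1 and mt-Nd4 in 24, mt-Atp6 in 22, mt-Nd1 in 20 and mt-Cytb in 16. Mt-Co3 was above 0 in 8. All clusters share the same 2 libraries, so they are no replicates of the difference.

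Nuclear ATP synthase genes together differed little, with 0.835% of all UMIs in KO and 0.852% in WT (-0.03), yet single subunits went opposite ways. Atp5k, the small membrane subunit e, had 11630 UMIs in KO and 10876 in WT, or 455 and 344 CPM (log2 ratio 0.41, ratio interval 1.29 to 1.36). The catalytic head subunits were lower in KO. Atp5a1, subunit alpha, had 458 CPM in KO and 545 CPM in WT (-0.25), and Atp5b, the catalytic subunit beta, had 771 CPM in KO and 907 CPM in WT (-0.23). None of these reached 1.5-fold over all cells.

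These patterns recurred across classes. Atp5k was above 0 in all 9, from 0.18 in radial glia-like to 0.52 in neuroblast-like cells, and its interval lay above 1 in 8. In GABAergic neuron-like cells it had 1727 UMIs in KO and 913 in WT (0.49), and in endothelial-like cells 1277 in KO and 987 in WT (0.51). Atp5a1 was below 0 in all 9, from -0.54 in radial glia-like to -0.02 in GABAergic neuron-like cells, with the interval below 1 in 8. In radial glia-like cells its value differed by cluster, at -0.08 in cluster 10 (232 UMIs in KO, 91 in WT) and -0.57 in cluster 16 (40 in KO, 207 in WT). Over the 26 clusters, Atp5k was above 0 in 25, Atp5a1 below 0 in 25 and Atp5b below 0 in 22. Among all nuclear members, 3 of the 79 measured in every class were above 0 in all (Atp5k, Uqcr10 of complex III and Cox7c of complex IV) and 2 below 0 in all (Atp5a1 and the assembly factor Ndufaf7). The shares over all genes were 2.80% and 3.04%, so these counts lay near the background.

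**Figure D3:**
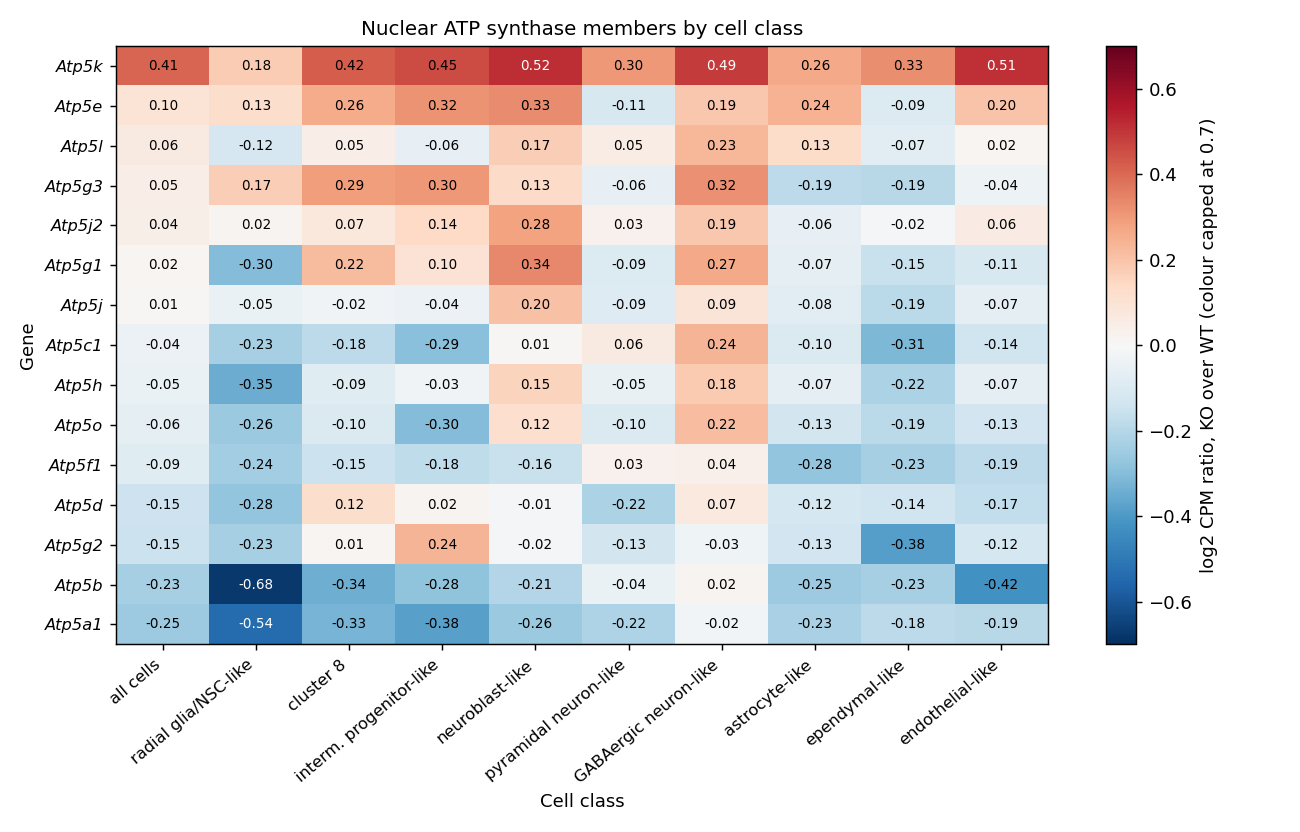
Log2 CPM ratio, KO over WT, of the nuclear ATP synthase subunits (rows) over all cells and in the 9 compared classes (columns). Atp5k was above 0 in all 9 classes and Atp5a1 below 0 in all 9, with Atp5b at -0.68 in radial glia-like and -0.42 in endothelial-like cells.

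Atp5b had its lowest ratio in radial glia-like cells, with 469 UMIs in KO and 566 in WT (584 and 934 CPM, -0.68). Inside the clusters of that class it was -0.21 in cluster 10 and -0.28 in cluster 16, both nearer to 0 than the class value. In endothelial-like cells, with 53 KO and 25 WT cells in cluster 20, Atp5b had 670 CPM in KO and 899 CPM in WT (-0.42). Of the other subunits named in single classes, Atp5e (subunit epsilon) was higher in KO in intermediate progenitor-like cells (225 UMIs in KO, 407 in WT, 0.32), astrocyte-like cells (0.24) and endothelial-like cells (0.20). Atp5d (subunit delta) was lower in pyramidal neuron-like cells (4875 UMIs in KO, 6813 in WT, -0.22). Atp5g2, encoding subunit c of the rotor ring, was lower in ependymal-like cells (918 UMIs in KO, 687 in WT, -0.38).

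Complex I nuclear subunits summed to 1.02% of UMIs in KO and 1.03% in WT (-0.01). The member most below 0 was Ndufc2, an accessory subunit, with 429 CPM in KO and 501 CPM in WT (-0.22). It was lowest in radial glia-like cells, at 645 UMIs in KO and 887 in WT, or 803 and 1463 CPM (-0.87, ratio interval 0.495 to 0.608). Within cluster 10 it was -0.68 and within cluster 16 -0.27, so it was lower in KO in both, by less than in the class. At a clustering resolution of 0.5 the class value was -0.47, under 1.5-fold. In GABAergic neuron-like cells Ndufc2 was at 679 CPM in KO and 678 CPM in WT (0.00).

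Other complex I genes differed in 1 or a few classes. Ndufv1, a core subunit that binds NADH, was lower in GABAergic neuron-like cells (138 CPM in KO, 184 in WT, -0.41), where the nuclear sum was higher in KO. Ndufa9, an accessory subunit, was lower in endothelial-like cells (264 UMIs in KO, 401 in WT, -0.46). Ndufs1, a core iron-sulphur subunit, was lower in cluster 8 (26 UMIs in KO, 102 in WT, -0.65). The assembly factors rested on few UMIs. Ndufaf8 had 82 UMIs in KO and 39 in WT in radial glia-like cells (0.66), and Ndufaf7 had 19 in KO and 76 in WT in neuroblast-like cells (-1.06). Ndufa1 and Ndufb11, which are X-linked, were at 0.05 and 0.01 over all cells.

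Complex III summed to 0.344% in KO and 0.351% in WT (-0.03). Uqcrc2, a core protein, was lower in intermediate progenitor-like cells, with 65 UMIs in KO and 236 in WT (159 and 257 CPM, -0.68). That value did not reach 1.5-fold with 4000 variable genes (-0.16), with at most 5% mitochondrial UMIs (-0.34), without doublet removal (-0.45) or at resolution 2 (-0.45). Uqcrc2 was at 0.01 in pyramidal neuron-like cells. In intermediate progenitor-like cells Uqcrh, the hinge protein, was higher in KO (319 UMIs in KO, 559 in WT, 0.36). Uqcrb, another subunit, was lower in astrocyte-like cells (259 UMIs in KO, 1164 in WT, -0.35).

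Complex IV summed to 0.906% in KO and 0.916% in WT (-0.01). Cox8a, the ubiquitous isoform of subunit 8, was lower in pyramidal neuron-like cells, with 6855 UMIs in KO and 10925 in WT (608 and 808 CPM, -0.41). Inside the clusters of that class it was -0.32 in cluster 1, -0.22 in cluster 2, -0.04 in cluster 5, 0.15 in cluster 11 and -0.33 in cluster 12. In GABAergic neuron-like cells Cox8a was higher in KO, at 1640 CPM in KO and 1425 CPM in WT (0.20). Cox7c, a small subunit, ranged from 0.06 in radial glia-like to 0.41 in GABAergic neuron-like cells, and the X-linked Cox7b was at 0.07 over all cells. Cox6a2, an isoform known from heart and skeletal muscle, was the nuclear gene called over all cells, on 31 UMIs in KO and 10 in WT.

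Counts of called members by class were read against each class's own background. In radial glia-like cells 2 of 81 nuclear members were called higher and 4 lower, against 12.2% and 13.4% of all genes. In cluster 8 the counts were 1 and 4 of 80 (8.1% and 12.6% of all genes), and in intermediate progenitor-like cells 0 and 2 of 79 (9.41% and 15.3%). In each of these 3 progenitor classes the counts came to smaller shares than the background. Ratios scatter more where UMIs are few, and the background was not matched to the members for depth in any class. The smaller shares therefore do not show that members were steadier than other genes. In neuroblast-like cells the counts were 0 and 1 of 80 (7.89% and 9.83%), in pyramidal neuron-like cells 0 and 2 of 84 (5.48% and 7.75%), and in astrocyte-like cells 1 and 3 of 82 (11.2% and 9.82%). In ependymal-like cells they were 1 and 1 of 83 (8.8% and 7.46%), in endothelial-like cells 0 and 0 of 83 (4.92% and 6.01%), and in GABAergic neuron-like cells 1 and 0 of 81 (6.65% and 6.69%). Of the mitochondrial members, between 1 and 3 of the 12 or 13 tested were called higher in each class, and 1 was called lower, mt-Nd6 in astrocyte-like cells.

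Small differences in 1 direction were frequent in several classes. In GABAergic neuron-like cells the ratio interval lay above 1 for 43 of 81 nuclear members and below 1 for 2, against 7.31% and 8.7% of all genes, with a median log2 ratio of 0.15. The shift held for complexes I (1.53% in KO, 1.38% in WT), IV (1.46% in KO, 1.28% in WT) and V (1.33% in KO, 1.18% in WT). In ependymal-like cells the interval lay below 1 for 32 of 83 nuclear members and above 1 for 3, against 9.93% and 9.36% of all genes, with a median of -0.15. In endothelial-like cells it lay below 1 for 32 of 83 and above 1 for 13, against 11.5% and 9.67%, with a median of -0.09. Intervals narrow as UMIs rise, and the shares over all genes in these 3 classes were not matched for depth. The GABAergic shift was present in both clusters of that class (0.15 in cluster 13, 0.10 in cluster 15, for the nuclear sum). Across the alternatives the GABAergic nuclear sum ran from 0.07 to 0.20.

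The clearest differences between cell types were in subunit paralogues. Ndufa4l2, the paralogue of the complex IV subunit Ndufa4 known to be induced by hypoxia, had 2116 CPM in KO and 1779 CPM in WT in mural-like cells, the contractile cells of vessel walls (497 and 121 UMIs). Endothelial-like cells followed at 324 CPM in KO and 378 CPM in WT. Leptomeningeal fibroblast-like cells had 267 CPM in KO and 126 CPM in WT (28 and 33 UMIs). Ndufa4l2 made up 95.8% (KO) and 93.1% (WT) of the UMIs of the pair in mural-like cells. Its share was 34.6% and 39.9% in endothelial-like cells, and 0.0955% and 0.172% in pyramidal neuron-like cells. Ndufa4 itself was lowest in mural-like cells, at 93.7 CPM in KO and 132 CPM in WT, and highest in GABAergic neuron-like cells, at 1800 CPM in KO and 1563 CPM in WT. The paralogues thus ran opposite ways across classes in both libraries.

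Cox4i2, the isoform of complex IV subunit 4 known from lung, was also highest in mural-like cells. It had 800 CPM in KO and 1014 CPM in WT there (188 and 69 UMIs). In endothelial-like cells it had 131 CPM in KO and 169 CPM in WT. In leptomeningeal fibroblast-like cells Cox4i2 had 9.5 CPM in KO and 7.6 CPM in WT (1 and 2 UMIs). Of the UMIs of the Cox4 pair it took 31.1% in KO and 34.0% in WT in mural-like cells, and 8.58% in KO and 10.2% in WT in endothelial-like cells. In endothelial-like cells Cox4i2 and Ndufa4l2 were both lower in KO. Cox4i2 had 509 UMIs in KO and 725 in WT (-0.37), and Ndufa4l2 had 1260 in KO and 1616 in WT (-0.22). That class was made up unevenly, with cluster 20 holding 53 of its 199 KO and 25 of its 198 WT cells. Within cluster 3, the rest of the class, Cox4i2 was at -0.25, the value nearest to 0 among the 3 clusters where it was tested. Within cluster 20 Ndufa4l2 was at -2.39, its lowest among 7 tested clusters, of which 3 were above 0 and 4 below. The part of this make-up in the class values was not tested. Over all cells Ndufa4l2 was instead higher in KO (92 CPM in KO, 76 in WT, 0.28), in a library with more mural-like cells (52 in KO, 15 in WT). The part of the cell mix in values over all cells was not tested gene by gene.

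Cox6b2, the isoform of complex IV subunit 6b known from testis, had its highest level in ependymal-like cells, a class named for the ciliated lining of the ventricles, at 182 CPM in KO and 238 CPM in WT (470 and 353 UMIs, log2 ratio -0.39). There it took 27.1% of the pair in KO and 31.7% in WT, against 4.41% in KO and 1.83% in WT in radial glia-like cells. Its ratio over all cells was 0.43, of opposite sign to the ependymal value, in a library with 230 ependymal-like cells in KO and 115 in WT. Of these, 70 KO and 25 WT cells lay in cluster 18, with Rspo3, Wnt8b and Gfap among its leading genes. In that cluster 10 ependymal and 9 radial glia markers passed the naming thresholds. Ependymal-like cells also had the highest Ndufaf3, a complex I assembly factor (375 CPM in KO, 409 in WT), and Ndufaf8 (191 CPM in KO, 199 in WT).

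**Figure D4:**
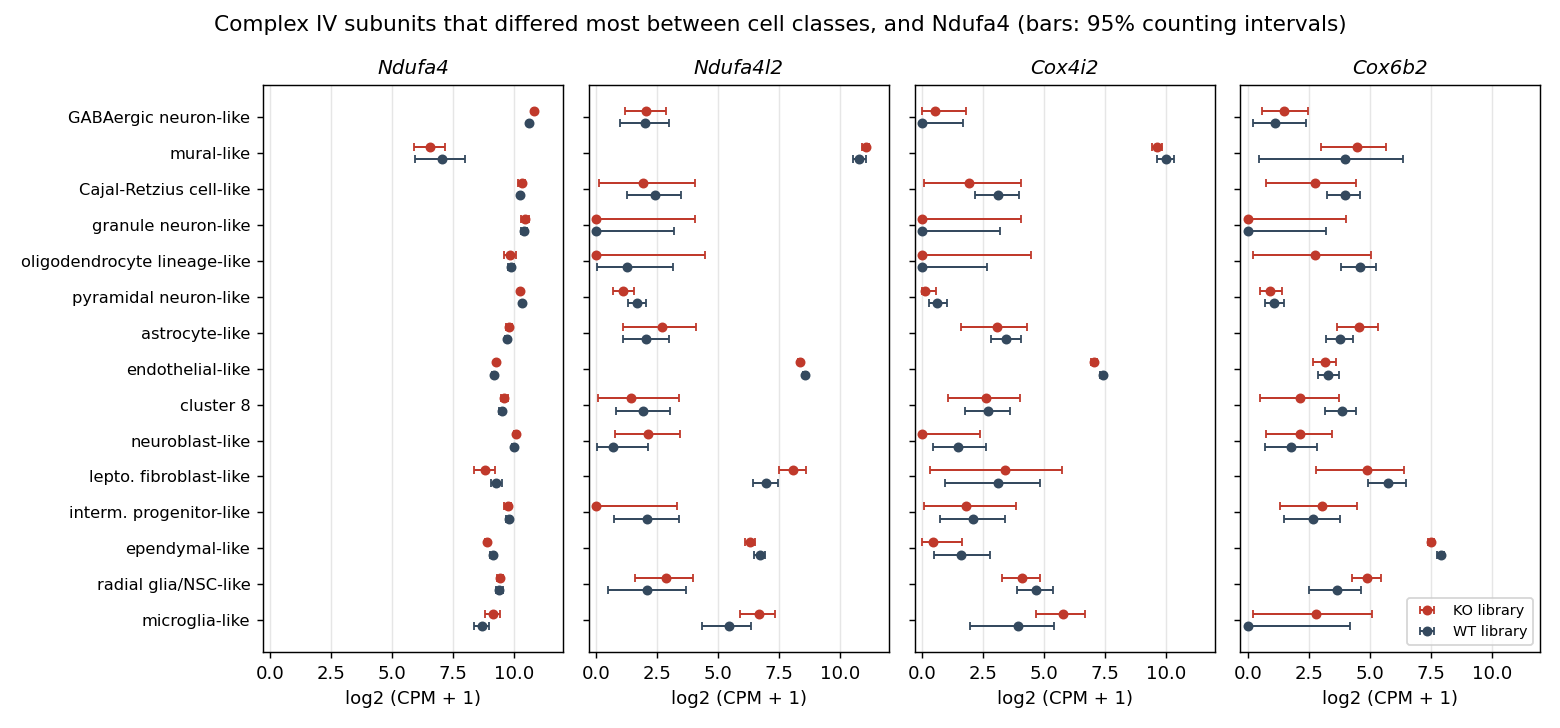
Level of Ndufa4, Ndufa4l2, Cox4i2 and Cox6b2 by cell class on the log2(CPM + 1) scale in the KO (red, upper) and WT (blue, lower) libraries, with 95% exact Poisson intervals for counting error. Ndufa4 was lowest and Ndufa4l2 and Cox4i2 highest in mural-like cells, and Cox6b2 was highest in ependymal-like cells (182 CPM in KO, 238 CPM in WT).

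The remaining paralogues were scarcer or more even. Cox6a2 had 26 UMIs in KO and 6 in WT in GABAergic neuron-like cells (11.5 and 3.57 CPM), and no UMI in radial glia-like, neuroblast-like, intermediate progenitor-like or endothelial-like cells. Cox7a1, the muscle isoform of subunit 7a, was highest in Cajal-Retzius-like cells (25.5 CPM in KO, 25.1 in WT) and had 59 UMIs in KO and 17 in WT in ependymal-like cells (0.96). Cox8b was at 0 UMIs and Cox8c at 1 UMI in each library. Among the Atp5g genes, which encode the same mature subunit c behind different import sequences, Atp5g1 took 63.7% of UMIs in KO and 63.8% in WT in pyramidal neuron-like cells, and 32.1% in KO and 32.4% in WT in endothelial-like cells. Atp5g2 was the main one in endothelial-like cells, at 46.7% in KO and 47.3% in WT, so these shares differed more between the 2 classes than between the libraries.

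Over nuclear members, the ratio between libraries went with mRNA length. The Spearman correlation between median annotated mRNA length and the log2 ratio was -0.47 across 86 genes, which share the libraries and are not independent replicates. Members under 500 nucleotides had a median log2 ratio of 0.09 (12 genes), those of 500 to 999 nucleotides 0.01 (53 genes) and longer ones -0.13 (21 genes). Across 1682 other genes of the same length range the correlation was -0.07, and their medians were 0.05, -0.06 and -0.07. These other genes met a UMI minimum of 4584.2. The members did not have to meet it, and Cox6a2 entered with 31 UMIs in KO and 10 in WT. The members and the other genes were therefore not matched for depth. By class the correlation of the members ran from -0.64 in endothelial-like to -0.08 in pyramidal neuron-like cells. Atp5k, with a median length of 321.5 nucleotides, and Atp5a1, with 2572.5, lay near the 2 ends. How length entered the counts was not tested.

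**Figure D5:**
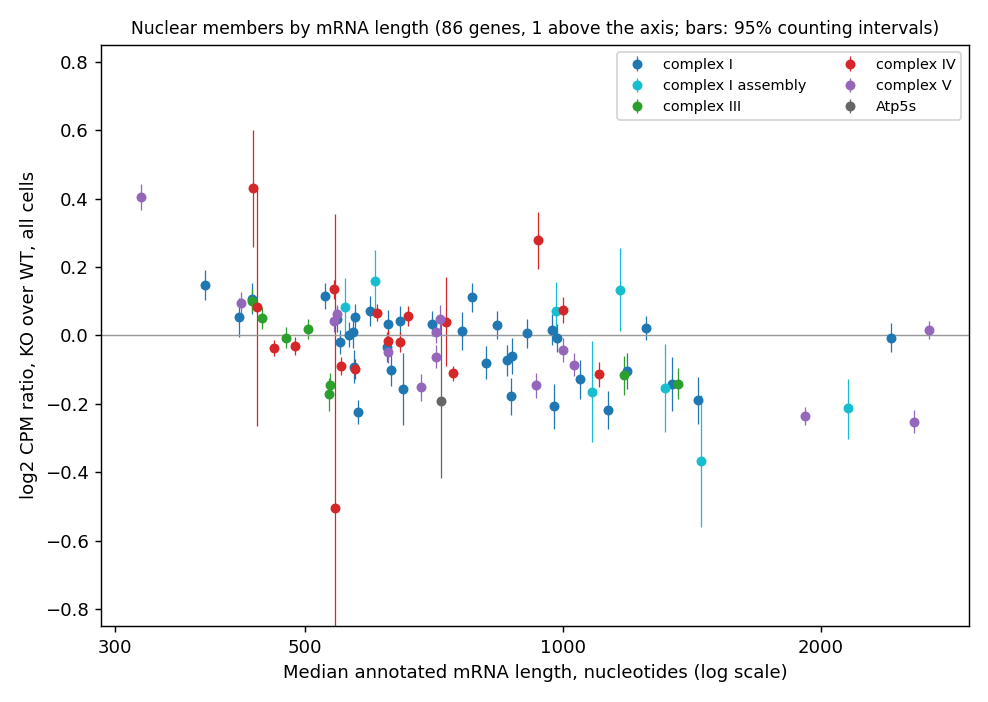
Log2 CPM ratio over all cells, KO over WT, of 86 nuclear members against median annotated mRNA length (log axis), coloured by complex, with 95% counting intervals; 1 gene, Cox6a2, lies above the axis. Ratios were mostly above 0 among the shortest mRNAs and below 0 among those longer than 1000 nucleotides (median -0.13).

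Other genes of energy metabolism are given beside the background of 24.0% of all genes with intervals below 1 and 24.1% above. That background was not matched for depth. Of 6 succinate dehydrogenase and cytochrome c genes, none was called and 5 had intervals below 1 (median -0.20). Sdhb, an iron-sulphur subunit of complex II, had 301 CPM in KO and 328 in WT (-0.13), Cyc1 had 250 CPM in KO and 285 in WT (-0.19), and Cycs, the electron carrier cytochrome c, had 413 CPM in KO and 401 in WT (0.04). Of 14 tricarboxylic acid cycle genes, 9 had intervals below 1 and 1 above (median -0.16), among them Mdh2, malate dehydrogenase, at 405 CPM in KO and 449 in WT (-0.15). Of 19 glycolysis genes tested, 14 had intervals below 1 and 1 above (median -0.18), and the list took 0.410% of UMIs in KO and 0.471% in WT. Gapdh (-0.14), Pkm (-0.18), Aldoa (-0.25) and Ldha (-0.25) were its most counted members. In radial glia-like cells the glycolysis sum was 0.351% in KO and 0.494% in WT (-0.49). That class was made of different clusters in the libraries, and the part of this make-up in the glycolysis value was not tested. In GABAergic neuron-like cells the glycolysis sum was 0.647% in KO and 0.608% in WT (0.09).

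Genes that build or serve the chain were read in the same way. Of 12 cytochrome oxidase assembly genes 1 was called lower, Cox15 of haem A synthesis, on 34 UMIs in KO and 73 in WT (-0.78), and the median was -0.02. Of 12 genes of mitochondrial biogenesis and mitochondrial transcription none was called and the median was 0.00. Of 12 carrier and outer-membrane genes 9 had intervals below 1 and 2 above (median -0.12), with Slc25a4, the ADP/ATP carrier, at 1346 CPM in KO and 1425 in WT (-0.08).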

How the data were processed

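The deposited values were UMI counts per gene and barcode, made by the authors with the 10x Genomics 3′ assay and Cell Ranger 3.0.2, Seurat 3 and build mm10 are listed in the submitters' processing notes without a role. Barcodes were kept from 500 genes and 1000 UMIs upwards if mitochondrial UMIs made up no more than 10%, 1967 in KO and 3029 in WT. Scrublet called only 10 KO and 12 WT doublets, so the 34 and 71 barcodes with the highest scores were removed. The libraries shared 9 barcodes (6 among kept cells). Median depth was 9318 UMIs per cell in KO and 7347.5 in WT.

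Cells of both libraries were clustered together (Python 3.11.15, scanpy 1.11.5, leidenalg 0.10.2, resolution 1, 2000 variable genes, 30 principal components, 15 neighbours) without member, mitochondrial, ribosomal protein or listed metabolic genes. A cluster was named from at least 3 markers, each seen in 10% or more of its cells and 1.5-fold above other clusters, so names are rebuilt here; 3 of 32 clusters stayed unnamed. Counts were summed per library and class and divided by all UMIs (CPM). Log2 ratios, KO over WT, had 0.5 UMI added. Genes with at least 20 UMIs over both libraries were compared. Ratio intervals are exact conditional binomial and sums have exact Poisson intervals, at 95%. The scripts were checked on simulated counts. Annotation was GENCODE M21 and promoters RefSeq, both GRCm38.

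Named were all mitochondrial, paralogue and X-linked members, the 3 nuclear members most above and most below in each class by the interval bound nearest to 1 (at least 50 UMIs), those past 1.5-fold, the 10 most uneven across classes, and up to 4 genes of each further list, and a class value outside these was given only beside a named one. Kdm6b was added as the targeted gene. Members and lists were chosen with earlier results of these data known. Alternatives covered filters, clustering, scaling (edgeR 4.0.16 TMM among them), sex-matched cells and thresholds.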

Additional observations from a re-analysis of the deposited data

Results flagged for a closer look

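The summed nuclear members went opposite ways in different cell classes under the same contrast of KO over WT. The log2 ratio of their share of UMIs was above 0 in GABAergic neuron-like cells (0.16) and neuroblast-like cells (0.11). It was below 0 in ependymal-like cells (-0.14), radial glia/neural stem cell-like cells (-0.14), astrocyte-like cells (-0.06), endothelial-like cells (-0.06) and pyramidal neuron-like cells (-0.06). With 1 library per genotype the difference between classes was not tested.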

How the results depend on the processing

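No paired analysis was possible because each genotype had 1 library. The nuclear sum over all cells (log2 ratio -0.02) stayed below 0, at -0.026 with at most 5% mitochondrial UMIs, -0.014 over UMIs that are not mitochondrially encoded, -0.038 with size factors by median of ratios, -0.025 as the mean fraction per cell, -0.00381 in cells with Xist and without Y-linked UMIs, and -0.010 with classes weighted equally. The mitochondrial sum (0.11) was 0.11472 with no mitochondrial limit, 0.039 with at most 5%, 0.12 with at least 200 genes and no UMI minimum, 0.091 by median of ratios, 0.15 per cell, 0.16 in the Xist cells and 0.15 with equal weights. The cause of these moves was not tested. Members called higher numbered 3 and called lower 0; at a ratio of 5 to 4 instead of 1.5-fold they numbered 7 and 2 (18.2% and 13% of all genes). With at most 5% mitochondrial UMIs 1 was lower, and in the Xist cells 1, in both cases Cox7b2. Mt-Nd3 was not called with at most 5% mitochondrial UMIs or by median of ratios.

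Alternatives gave 336 values in all for 28 class and gene results. In 10 of them a difference whose interval excluded equality turned direction. The nuclear sum in intermediate progenitor-like cells (-0.01), whose interval held equality, kept its sign in 5 of 12 alternatives and ran up to 0.06158. The mitochondrial sum in astrocyte-like cells became -0.050 at 5%, -0.05489 at resolution 0.5, -0.018 at resolution 2, -0.00282 with 4000 variable genes and -0.015 in the Xist cells, and in pyramidal neuron-like cells -0.037 at 5%. Chosen after seeing the data, clusters alone gave nuclear sums of 0.021 in radial glia-like cluster 10, 0.065 in pyramidal cluster 5 and 0.059 in pyramidal cluster 11, and 0.15 for Cox8a in cluster 11.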
